A study of Homo sapiens with 9 samples.

Results

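The genes described here are 37 human genes of the ATF4 response, amino acid transport, and serine and one-carbon metabolism, taken as a list of symbols and matched to their Ensembl identifiers. All 37 were found among the 58243 identifiers counted, and 34 had enough reads to be tested. They were followed in DOHH2, a human cell line established from a follicular lymphoma that had transformed. The D19 femur and D40 femur groups were hCD20-positive cells sorted out of femurs of RAGγc mice, an immunodeficient strain, 19 and 40 days after DOHH2 cells had been grafted. The D0 culture group was the same line grown in culture and taken on a grafting day. Each group had 3 libraries, and no group carried a drug or a gene change by the labels.

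ATF4 is a transcription factor that cells make when kinases sensing amino acid shortage, endoplasmic reticulum stress or other strains phosphorylate the translation factor eIF2. Its control lies largely in translation, so the counts of its RNA do not measure its protein. ATF4 acts on genes that import amino acids, make asparagine, serine and glycine, and feed one-carbon units from serine into the folate cycle, which dividing lymphocytes use to build purines and thymidylate. It also acts on genes that shut the response down or lead to cell death, among them DDIT3 (also called CHOP), TRIB3 and CHAC1.

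ATF4 binds with C/EBP partners to a composite element whose core is written TGATGNAA. To show which of these genes carry such letters near their start, the RefSeq promoters (GRCh38.p14, 250 bases before to 50 after a start) were searched on both strands. Of the 37 genes, 31 had a promoter in the table. ALDH1L2, GPT2, NUPR1, PSPH, SHMT2 and SLC7A11 had none and were not searched. Of the 31, 11 (35.5%) held TGATGNAA in at least 1 of their promoters. The same letters were in 1217 of 27305 RefSeq genes (4.46%). The 31 genes had 54 promoters and the 27305 had 35116, so the 31 had more promoters per gene and more chances of a match. The list was also drawn up for the ATF4 response, and the difference between these shares was not tested. The narrower spelling TGATGCAA, whose matches are part of the TGATGNAA matches, was in 6 of the 31 genes (19.4%) and in 295 of all genes (1.08%). The cyclic AMP element TGACGTCA was in 0 of the 31 and in 614 of all genes (2.25%). A match is a run of letters and no evidence of binding, and a gene without a match may carry the element outside the bases searched. Each match is given below 5′ to 3′ on the strand on which it reads forward, with the element in capitals and 5 bases on each side. The 1 match of MTHFD1L lies in 3 overlapping promoters of that gene.
ATF3 chr1:212565211-212565228 (plus strand): caggaTGATGGAAggctg
CHAC1 chr15:40953257-40953274 (minus strand): aggagTGATGCAAcggca
MTHFD1L chr6:150866352-150866369 (plus strand): ggctcTGATGCAAtcgcg
SLC3A2 chr11:62881731-62881748 (minus strand): ggagcTGATGTAAggagt
SLC7A1 chr13:29595669-29595686 (minus strand): actgcTGATGAAAcctgg
SLC1A4 chr2:64989387-64989404 (minus strand): ggagaTGATGCAAacggg
SLC1A5 chr19:46784899-46784916 (minus strand): gtggcTGATGCAAgctgt
SLC38A1 chr12:46266508-46266525 (minus strand): ccgaaTGATGAAAaggga
ASNS chr7:97872464-97872481 (minus strand): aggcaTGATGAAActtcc
GOT1 chr10:99430810-99430827 (plus strand): gagaaTGATGCAAccaat
BCAT1 chr12:24949137-24949154 (minus strand): cctgcTGATGCAAtccgc

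The ASNS match began at position -68, counted from the first transcribed base as 0, and is the known nutrient-sensing element of that gene. The SLC1A4 match lay on the strand opposite to the gene, so it stands there as its reverse complement. The whole promoters of these 2 genes are shown because ASNS rose and SLC1A4 fell in femur cells although both carry the element. Both are on the gene's own strand, with the element in capitals.
ASNS promoter chr7:97872359-97872658 (minus strand): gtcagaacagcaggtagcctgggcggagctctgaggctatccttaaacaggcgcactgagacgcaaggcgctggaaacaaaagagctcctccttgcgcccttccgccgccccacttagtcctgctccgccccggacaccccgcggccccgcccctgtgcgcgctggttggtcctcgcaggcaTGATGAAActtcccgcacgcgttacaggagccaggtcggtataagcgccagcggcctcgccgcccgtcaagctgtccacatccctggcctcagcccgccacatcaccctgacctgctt
SLC1A4 promoter chr2:64989149-64989448 (plus strand): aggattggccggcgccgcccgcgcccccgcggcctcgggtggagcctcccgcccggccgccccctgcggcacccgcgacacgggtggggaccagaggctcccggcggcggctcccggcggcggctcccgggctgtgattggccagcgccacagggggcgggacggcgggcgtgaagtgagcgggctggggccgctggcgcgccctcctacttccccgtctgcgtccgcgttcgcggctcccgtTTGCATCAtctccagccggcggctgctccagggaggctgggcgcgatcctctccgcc

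The 9 libraries held 21071239 to 29456271 counts. Comparisons of 2 groups used edgeR's quasi-likelihood test on all genes, and a gene was called when its p, adjusted by the Benjamini-Hochberg method over 15163 tested genes, was under 0.05. Levels are CPM, counts scaled to library size, and fold changes are log2 values with their SE. The labels do not say which cultures or animals the libraries came from, so p-values cover the spread among these libraries only, and that spread may be technical. By the dates in the titles, D40 femur replicates 1 and 2 date from 11 and 26 days after the same-numbered culture library, so those cells were not grafted on that library's day. D19 femur replicates 1 and 2 date from 18 and 19 days after it, so they were grafted on other days than the D40 cells. At these numbers a difference between D40 and D19 is therefore also one between grafts. Femur cells were digested out of bone, depleted with beads and sorted, and no such step is given for the cultured cells, so growth in the femur and this handling cannot be told apart. Mitochondrial genes took 7.54% to 8.67% of counts in the 6 femur libraries, against 4.83% to 6.07% in culture. In bulk RNA, fewer cells that express a gene and less of its RNA per cell cannot be told apart.

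B-cell markers summed to 4109 to 5167 CPM in D0 culture, 2779 to 3014 in D19 femur and 3259 to 3488 in D40 femur, and none of the 7 was at 0. The 10 stromal and endothelial markers summed to 4.46 to 7.70, 6.64 to 8.89 and 6.72 to 8.80 CPM in D0 culture, D19 femur and D40 femur, and 7, 6 and 7 of them had no count in that group. Within that list PDGFRB, a receptor of stromal cells that is named here after its values were seen, had 90, 142 and 117 counts in D19 femur and 87, 114 and 82 in D40 femur, against 1, 2 and 0 in culture. PECAM1, an endothelial marker that some blood cells also carry and the only other tested gene of that list, had 70, 45 and 38 counts in D19 femur and 117, 121 and 80 in D40 femur, against 139, 167 and 114 in culture. It fell at D19, to 0.379 times its culture level (adjusted p = 0.000584), and was not called at D40 (adjusted p = 0.0513). The 9 erythroid and myeloid markers summed to 2.59 to 4.85, 4.80 to 5.94 and 2.42 to 5.18 CPM, with 7, 4 and 7 of them at 0. The 6 T and NK cell markers summed to 3.99 to 5.01, 1.23 to 1.86 and 1.35 to 2.05 CPM, with 1, 1 and 2 of them at 0. The 6 proliferation genes summed to 2273 to 2589, 2323 to 2428 and 2366 to 2423 CPM. The contribution of other cells, or of mouse reads, to the results below was not tested.

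At D19, 8 of the 34 tested genes rose and 13 fell in femur cells, and 13 were not called. That is 61.8% called, where 52.7% of all tested genes were called (26.3% higher and 26.4% lower). At D40, 5 rose, 14 fell and 15 were not called, which is 55.9% beside 46.4% of all genes (23.1% higher and 23.3% lower). The median log2 fold change of the 34 was -0.06 at D19 and -0.15 at D40, with medians of all tested genes at 0.01 and 0.02 (results of the 2 days share the culture libraries). Scaling by total counts alone made 59.1% of all D19 calls and 60.9% of all D40 calls higher, against 49.9% and 49.8% under the scaling used. Changes of at least 2-fold were few at both days, with ATF3, VLDLR and SLC38A2 higher and SLC7A11 lower. Such changes made up 16.5% of all tested genes at D19 (10.8% higher and 5.71% lower) and 12.7% at D40 (9.25% higher and 3.43% lower).

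**Figure D1:**
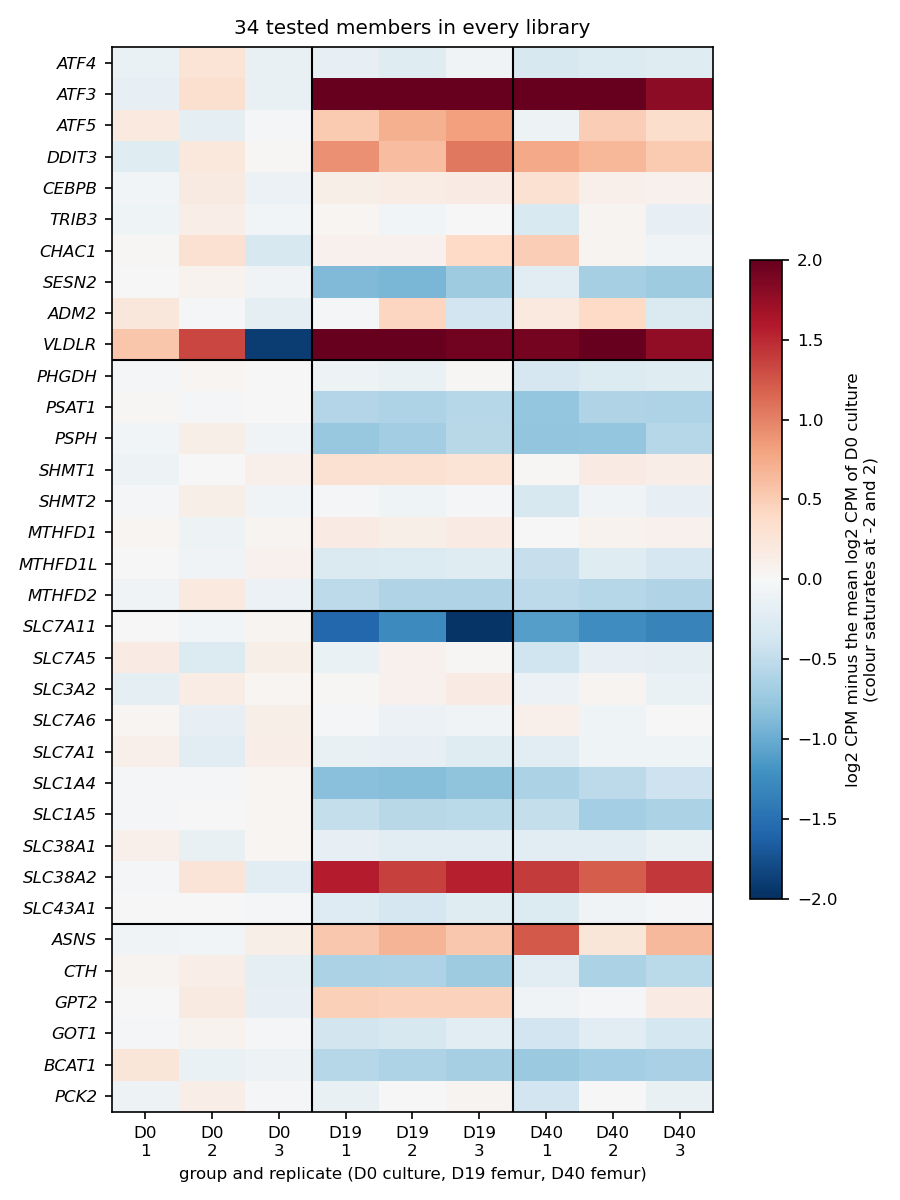
Log2 CPM of the 34 tested genes (rows, in blocks by role) in the 9 libraries (columns) minus the gene's mean over the D0 culture libraries; red is higher, blue lower, and colours saturate at -2 and 2. ATF3, VLDLR and SLC38A2 are red and SLC7A11 is blue in every femur library, and PSAT1, PSPH, MTHFD1L and MTHFD2 are paler blue there.

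ATF4 was the most abundant of the 37 genes per kilobase of exon in every group, at 257.4 ± 44.3 CPM per kilobase in D0 culture, 228.9 ± 14.3 in D19 femur and 210.3 ± 5.10 in D40 femur (SD, n = 3 each). Its counts scaled to depth were 586.4, 775.6 and 579.5 CPM in D0 culture, 570.9, 542.0 and 613.2 in D19 femur and 515.3, 530.2 and 540.8 in D40 femur. The 3 D40 libraries lay below all culture libraries, D19 overlapped culture, and culture replicate 2 stood above the rest. The log2 fold change was -0.29 ± 0.10 at D40 (adjusted p = 0.0319) and -0.17 ± 0.10 at D19 (adjusted p = 0.178). Without culture replicate 2 the D40 value was -0.15 and no longer called (adjusted p = 0.0508). The call was also lost without any 1 of the D40 libraries (adjusted p = 0.0630 to 0.0812) and under scaling by total counts, at -0.20 (adjusted p = 0.0757). The D19 value was called with no filter on low counts, at -0.19 (adjusted p = 0.0354).

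Among the 12 transcription factors and stress feedback genes, 10 were tested, of which 4 rose and 1 fell at D19, and 3 rose and 2 fell at D40. ATF3, a stress-induced repressor of the ATF family, was 0.424, 0.592 and 0.426 CPM in D0 culture, 4.18, 3.45 and 2.62 in D19 femur and 8.15, 6.30 and 1.64 in D40 femur. Every femur library was above every culture library, and D40 replicate 3 was the lowest of the femur libraries. The log2 fold change was 2.82 ± 0.57 at D19 (adjusted p = 0.00182) and 3.48 ± 0.55 at D40 (adjusted p = 0.000538). The gene remained scarce, with 10 to 13 counts per culture library and 40 to 225 per femur library.

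DDIT3, the pro-death partner of C/EBP factors, was 10.9, 14.9 and 13.0 CPM in D0 culture, 24.1, 19.5 and 26.7 in D19 femur and 21.5, 20.3 and 18.4 in D40 femur. No femur library fell into the culture range. It rose by 0.86 ± 0.14 at D19 (adjusted p = 0.000171) and by 0.64 ± 0.14 at D40 (adjusted p = 0.00201). Of its exon bases 27.16% also lie in MARS on the opposite strand, and the strand setting of the counting is not given, so some of these reads may belong to that more abundant gene. MARS (also called MARS1) was itself called lower in femur cells, at -0.27 ± 0.06 at D19 (adjusted p = 0.00168) and -0.26 ± 0.06 at D40 (adjusted p = 0.00302). The effect of such reads on DDIT3 was not tested.

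TRIB3, a pseudokinase that restrains ATF4, was 77.4, 90.6 and 79.5 CPM in D0 culture, 84.6, 79.1 and 82.9 in D19 femur and 66.7, 85.9 and 73.4 in D40 femur. CHAC1, a glutathione-degrading enzyme, was 8.28, 10.1 and 6.55 CPM in D0 culture, 8.66, 8.71 and 10.7 in D19 femur and 11.5, 8.52 and 7.74 in D40 femur. For both genes the groups overlapped and neither was called. The log2 fold changes were -0.00 ± 0.09 and -0.13 ± 0.09 for TRIB3 and 0.18 ± 0.19 and 0.16 ± 0.19 for CHAC1 at D19 and D40. CEBPB, a C/EBP partner of ATF4, and ADM2, a peptide hormone of the calcitonin family, were not called at either day, with values between 0.03 and 0.16. Without culture replicate 2, CEBPB was called at 0.22 and 0.24 (adjusted p = 0.0251 and 0.0184), and under scaling by total counts at 0.23 and 0.25 (adjusted p = 0.0293 and 0.0230). Without D40 replicate 2, TRIB3 was called lower at D40, at -0.25 (adjusted p = 0.0371).

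VLDLR, a lipoprotein receptor that ATF4 is known to raise, was 0.212, 0.364 and 0.0388 CPM in D0 culture, 1.10, 1.12 and 0.550 in D19 femur and 0.544, 0.838 and 0.492 in D40 femur. The femur libraries did not overlap culture, but the counts were 25, 24 and 13 in D19 femur and 15, 25 and 12 in D40 femur, against 5, 8 and 1 in culture. It rose by 2.18 ± 0.54 at D19 (adjusted p = 0.00412) and by 1.64 ± 0.55 at D40 (adjusted p = 0.0267). Without culture replicate 2 these values were 2.85 and 2.31. The D40 call was lost without culture replicate 1 (adjusted p = 0.0610), culture replicate 3 (adjusted p = 0.0959) or D40 replicate 2 (adjusted p = 0.101).

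ATF5, a close relative of ATF4, averaged 294.3 ± 38.8 CPM in D0 culture, 471.8 ± 49.2 in D19 femur and 352.9 ± 70.6 in D40 femur (SD, n = 3 each). It rose by 0.68 ± 0.15 at D19 (adjusted p = 0.00235) and was not called at D40, at 0.26 ± 0.14 (adjusted p = 0.160), where it was called without D40 replicate 1, at 0.41 (adjusted p = 0.0146). Of its exon bases 21.19% are shared with NUP62 on the opposite strand. SESN2, a sestrin that dampens mTORC1 and is also a target of p53, averaged 59.6 ± 2.95, 33.3 ± 2.53 and 41.8 ± 8.37 CPM in the same order. It fell by 0.84 ± 0.12 at D19 (adjusted p = 7.91e-05) and by 0.51 ± 0.12 at D40 (adjusted p = 0.00338).

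NUPR1, a stress-induced chromatin protein, STC2, a secreted glycoprotein, and ALDH1L2, a mitochondrial folate enzyme, were the 3 genes too low to test. NUPR1 had 1 count in D19 femur replicates 2 and 3 and 0 in the other libraries. STC2 had at most 4 counts in any library, and ALDH1L2 had 5 to 14.

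**Figure D2:**
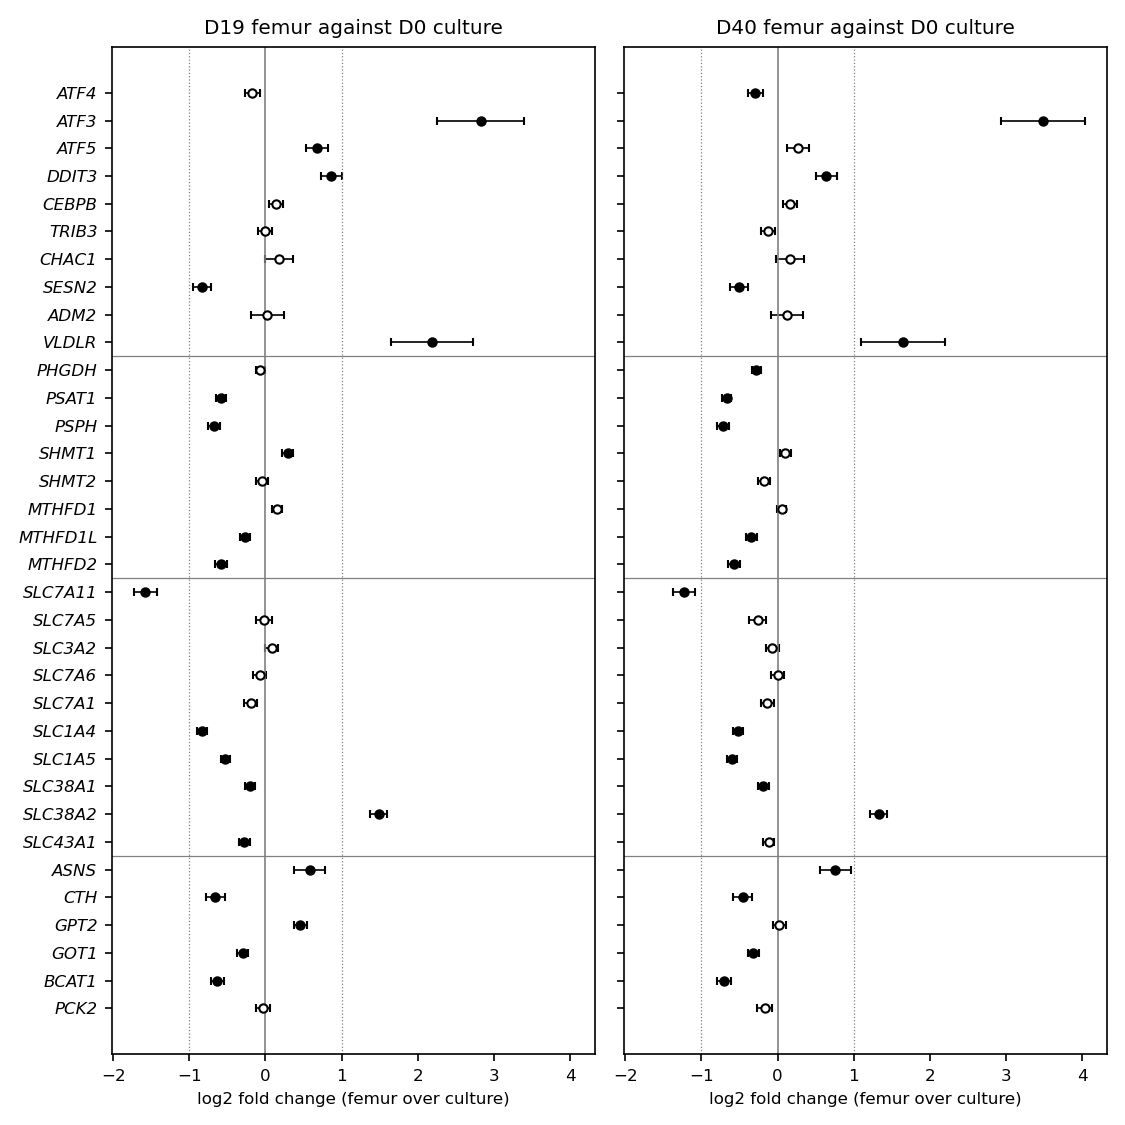
Log2 fold change of the 34 tested genes at D19 (left) and D40 (right), femur over culture, in blocks by role; filled points passed the test, open points did not, bars are the SE and dotted lines mark 2-fold. ATF3 at 2.82 and 3.48 and SLC7A11 at -1.58 and -1.23 are the outermost points, and the PSAT1, PSPH and MTHFD2 points lie left of 0 at both days.

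Of 9 serine, glycine and folate enzymes, 8 were tested, of which 1 rose and 4 fell at D19 and 5 fell at D40. Genes of serine synthesis were among those that fell. PSAT1, the aminotransferase of that path, averaged 179.3 ± 3.41 CPM in D0 culture, 119.7 ± 2.03 in D19 femur and 113 ± 7.15 in D40 femur. It fell by 0.58 ± 0.06 at D19 (adjusted p = 5.43e-06) and by 0.67 ± 0.06 at D40 (adjusted p = 2.83e-06). PSPH, which makes the final product serine, fell by 0.67 ± 0.08 and 0.71 ± 0.08 (adjusted p = 1.93e-05 and 1.80e-05). PHGDH, which commits 3-phosphoglycerate to the path, was not called at D19 (-0.07 ± 0.06) and fell by 0.28 ± 0.06 at D40 (adjusted p = 0.00289).

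The mitochondrial folate enzyme MTHFD2 was 301.6, 364.3 and 293.2 CPM in D0 culture, 220.4, 209.3 and 208.9 in D19 femur and 221.6, 214.2 and 210.4 in D40 femur. Each femur library was below each culture library (MTHFD2 is given per library by choice after its values were seen, as are SLC1A4 and GPT2 below). It fell by 0.59 ± 0.08 at D19 (adjusted p = 4.61e-05) and by 0.57 ± 0.08 at D40 (adjusted p = 8.90e-05). MTHFD1L, which releases formate from mitochondria, fell by 0.27 ± 0.07 (adjusted p = 0.00481) and by 0.34 ± 0.07 (adjusted p = 0.00124). Under scaling by total counts the D19 value of MTHFD1L was -0.19 and not called (adjusted p = 0.0666).

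Neither cytosolic enzyme of the folate cycle was called lower. MTHFD1 was 0.15 ± 0.06 at D19 (adjusted p = 0.0594) and 0.05 ± 0.06 at D40 (adjusted p = 0.522), and the D19 value was called in DESeq2 (adjusted p = 0.0444) and under scaling by total counts, at 0.23 (adjusted p = 0.0193). SHMT1, the cytosolic serine hydroxymethyltransferase, rose by 0.29 ± 0.07 at D19 (adjusted p = 0.00307) and was 0.10 ± 0.07 at D40 (adjusted p = 0.240). SHMT2, its mitochondrial counterpart and the second most abundant gene per kilobase in culture, was -0.05 ± 0.08 and -0.18 ± 0.08 and was called at neither day. The D40 value was called without culture replicate 3, at -0.23 (adjusted p = 0.0425), and without D40 replicate 2, at -0.25 (adjusted p = 0.0336). It was also called with all libraries and no filter on low counts, at -0.20 (adjusted p = 0.0292).

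Pairs of these enzymes were compared within each library as a ratio of levels per kilobase of exon. The pairs were chosen after the values were seen and are given without a test. MTHFD2 and SHMT2 are mitochondrial and are set over their cytosolic counterparts, and PSAT1 and PHGDH are successive enzymes of serine synthesis. MTHFD2 over MTHFD1 was 2.44, 3.27 and 2.35 in D0 culture, 1.65, 1.60 and 1.56 in D19 femur and 1.85, 1.71 and 1.65 in D40 femur. SHMT2 over SHMT1 was 12.4, 12.8 and 10.5 in D0 culture, 9.39, 9.09 and 9.67 in D19 femur and 9.40, 10.2 and 9.69 in D40 femur. PSAT1 over PHGDH was 2.38, 2.18 and 2.30 in D0 culture, 1.64, 1.63 and 1.53 in D19 femur and 1.68, 1.81 and 1.75 in D40 femur. In all 3 pairs no femur library reached the culture range. How often other pairs of genes separate in this way was not tested. Of all tested genes, 52.7% were called at D19 and 46.4% at D40, femur against culture. Neither SHMT2 nor SHMT1 was itself called at D40.

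**Figure D3:**
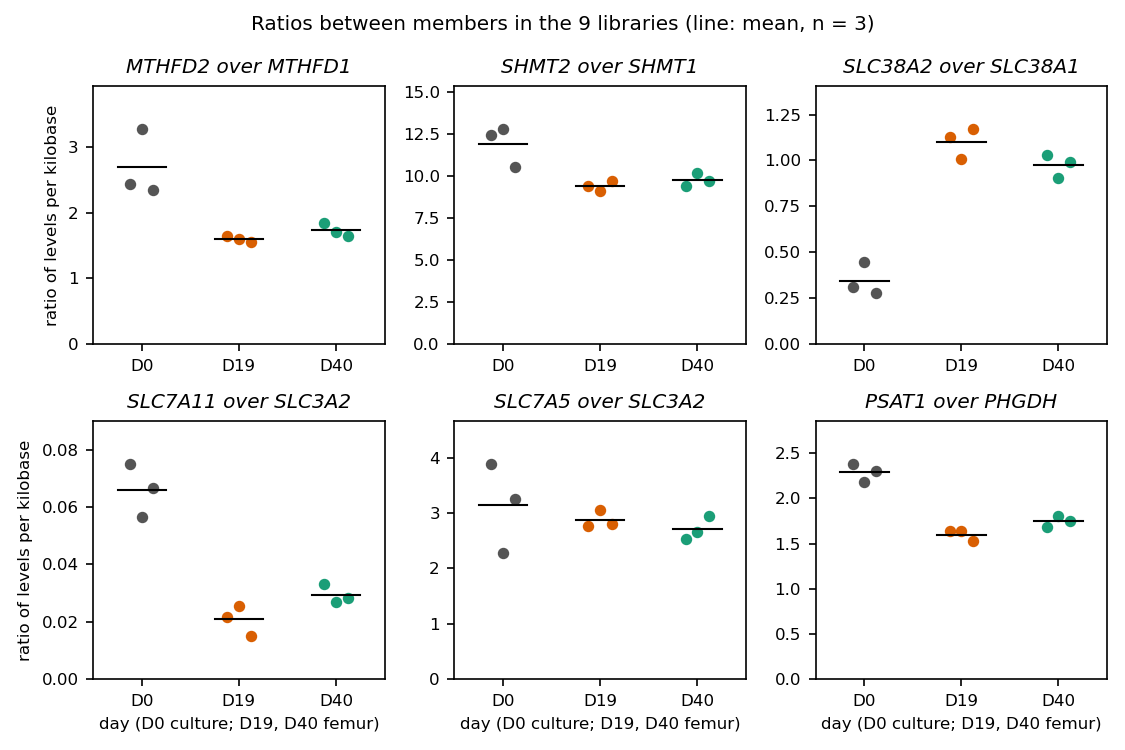
Ratio of levels per kilobase of exon between 2 genes in each library (points) with the group mean (line), in D0 culture, D19 femur and D40 femur. MTHFD2 over MTHFD1, SHMT2 over SHMT1, SLC7A11 over SLC3A2 and PSAT1 over PHGDH are lower in all 6 femur libraries and SLC38A2 over SLC38A1 is higher, while the groups overlap for SLC7A5 over SLC3A2.

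All 10 amino acid transporters were tested, of which 1 rose and 5 fell at D19, and 1 rose and 4 fell at D40. SLC7A11, the cystine carrier of system xc-, was 21.8, 20.7 and 22.4 CPM in D0 culture, 7.26, 8.99 and 5.58 in D19 femur and 10.04, 9.19 and 8.52 in D40 femur. The 6 femur libraries all lay far below culture. It fell by 1.58 ± 0.15 at D19 (adjusted p = 2.11e-06) and by 1.23 ± 0.15 at D40 (adjusted p = 2.43e-05). Its heavy chain SLC3A2, which also pairs with SLC7A5, was 0.08 ± 0.09 and -0.07 ± 0.09 and was called at neither day. SLC7A11 over SLC3A2 per kilobase was 0.0751, 0.0566 and 0.0667 in D0 culture, 0.0218, 0.0257 and 0.0151 in D19 femur and 0.0331, 0.0270 and 0.0284 in D40 femur.

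SLC38A2, the system A carrier that cells raise when amino acids are short, went the other way. It was 97.2, 117.3 and 83.8 CPM in D0 culture, 291.6, 253.8 and 290.8 in D19 femur and 260.0, 227.4 and 261.1 in D40 femur. The lowest femur library was above the highest culture library. It rose by 1.49 ± 0.11 at D19 (adjusted p = 3.78e-07) and by 1.33 ± 0.11 at D40 (adjusted p = 1.81e-06), which is 2.81-fold and 2.51-fold.

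SLC38A1, a related glutamine carrier, lies on chromosome 12 at positions 46183063 to 46270017 (hg38, GENCODE 29), 88172 bases from SLC38A2 at 46358189 to 46372867, both on the minus strand. It fell by 0.20 ± 0.07 at D19 (adjusted p = 0.0261) and by 0.19 ± 0.07 at D40 (adjusted p = 0.0435). Both calls were lost under scaling by total counts, which gave -0.12 (adjusted p = 0.241) and -0.11 (adjusted p = 0.307). Leaving out 1 library ended the D19 call in 4 cases and the D40 call in 8. SLC38A2 over SLC38A1 per kilobase was 0.313, 0.445 and 0.280 in D0 culture, 1.13, 1.01 and 1.17 in D19 femur and 1.03, 0.903 and 0.990 in D40 femur.

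SLC1A4, a carrier of neutral amino acids such as serine and alanine, was 141.2, 140.6 and 146.9 CPM in D0 culture, 79.8, 79.5 and 81.8 in D19 femur and 92.0, 98.9 and 107.2 in D40 femur. The 3 groups did not overlap, with D40 between the others. It fell by 0.83 ± 0.07 at D19 (adjusted p = 3.91e-07) and by 0.53 ± 0.07 at D40 (adjusted p = 3.51e-05). SLC1A5, the glutamine carrier ASCT2, fell by 0.53 ± 0.06 at D19 (adjusted p = 2.10e-05) and by 0.60 ± 0.06 at D40 (adjusted p = 1.08e-05). SLC43A1, a carrier of large neutral amino acids, fell by 0.28 ± 0.07 at D19 (adjusted p = 0.00590) and was -0.12 ± 0.07 at D40 (adjusted p = 0.194).

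The other transporters were called at neither day. SLC7A5, the leucine carrier LAT1, averaged 502.2 ± 79.3 CPM in D0 culture, 495.9 ± 38.2 in D19 femur and 419.1 ± 36.2 in D40 femur, with log2 fold changes of -0.02 ± 0.11 and -0.26 ± 0.11. SLC7A1, the arginine and lysine carrier CAT1, was -0.19 ± 0.09 and -0.13 ± 0.09. Without culture replicate 2, SLC7A1 was called lower at -0.30 and -0.25 (adjusted p = 0.000529 and 0.00284), and SLC7A5 at D40 at -0.40 (adjusted p = 0.000963). With no filter on low counts and all libraries, SLC7A1 was also called lower at D19, at -0.22 (adjusted p = 0.0174), and SLC7A5 at D40, at -0.28 (adjusted p = 0.00101). SLC7A6, which exchanges cationic for neutral amino acids, was -0.08 ± 0.08 and 0.00 ± 0.08, and 44.43% of its exon bases are shared with SLC7A6OS on the opposite strand.

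**Figure D4:**
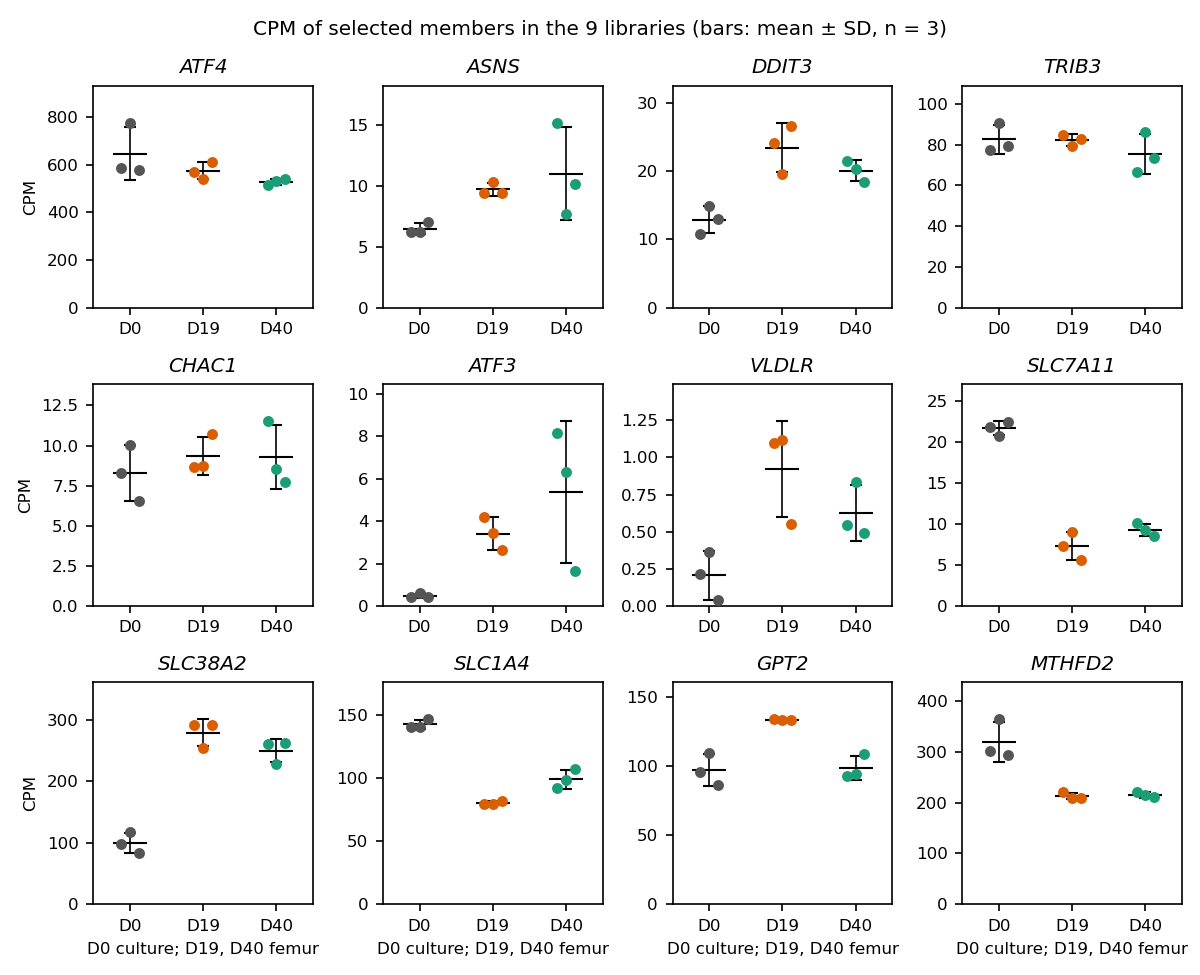
CPM of 12 genes in each library (points), with the group mean and SD (bars, n = 3), in D0 culture, D19 femur and D40 femur; every axis starts at 0. SLC38A2 stands at 227.4 CPM or more in the femur libraries against at most 117.3 in culture, SLC7A11 at 10.04 or less against at least 20.7, and the TRIB3 and CHAC1 groups overlap.

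The 6 amino acid enzymes were all tested, of which 2 rose and 3 fell at D19, and 1 rose and 3 fell at D40. ASNS, asparagine synthetase, was 6.20, 6.24 and 7.05 CPM in D0 culture, 9.45, 10.3 and 9.39 in D19 femur and 15.2, 7.68 and 10.2 in D40 femur. Every femur library was above culture, and D40 replicate 1 was the highest of the 9, as it also was for ATF3 and CHAC1. It rose by 0.58 ± 0.21 at D19 (adjusted p = 0.0305) and by 0.76 ± 0.20 at D40 (adjusted p = 0.00862). Without D40 replicate 1 the D40 value was 0.44 (adjusted p = 0.0424), and the D19 call was lost in limma voom (adjusted p = 0.0514) and when any of 5 libraries was left out (adjusted p = 0.0546 to 0.0863). Its counted level was low, at 1.46 CPM per kilobase in culture, and 44.56% of its exon bases are shared with AC079781.5 on the same strand. Reads over these bases may not all be counted for ASNS, so its level per kilobase is uncertain. The effect of this overlap was not tested.

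GPT2, the mitochondrial alanine aminotransferase, was 96.1, 109.4 and 86.4 CPM in D0 culture, 134.1, 133.5 and 133.8 in D19 femur and 92.8, 94.8 and 108.8 in D40 femur. D19 stood above both other groups, which overlapped. It rose by 0.46 ± 0.09 at D19 (adjusted p = 0.000622) and was 0.02 ± 0.09 at D40 (adjusted p = 0.854). BCAT1, which transaminates branched-chain amino acids in the cytosol, fell by 0.63 ± 0.09 at D19 (adjusted p = 7.07e-05) and by 0.70 ± 0.09 at D40 (adjusted p = 4.41e-05).

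CTH, which makes cysteine from cystathionine, averaged 18.3 ± 1.95 CPM in D0 culture, 11.6 ± 0.391 in D19 femur and 13.3 ± 2.03 in D40 femur. It fell by 0.66 ± 0.13 at D19 (adjusted p = 0.000757) and by 0.46 ± 0.12 at D40 (adjusted p = 0.00897), so both SLC7A11, which imports cystine, and CTH were lower. GOT1, the cytosolic aspartate aminotransferase, fell by 0.30 ± 0.07 and 0.32 ± 0.07 (adjusted p = 0.00411 and 0.00325). PCK2, the mitochondrial phosphoenolpyruvate carboxykinase, was -0.03 ± 0.10 and -0.17 ± 0.10 and was called at neither day, though at D40 it was called without D40 replicate 2, at -0.28 (adjusted p = 0.0425).

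Of the 11 genes with TGATGNAA in a promoter, all were tested. ASNS and ATF3 rose at both days, MTHFD1L, SLC1A4, SLC1A5, SLC38A1, GOT1 and BCAT1 fell at both, and CHAC1, SLC3A2 and SLC7A1 were not called. Of the 19 tested genes with a promoter and no match, 5 rose and 5 fell at D19, and 3 rose and 6 fell at D40. Genes with the element moved in both directions, as did all tested genes (26.3% higher and 26.4% lower at D19, 23.1% and 23.3% at D40). A difference between genes with and without a match was not tested, and no match in these promoters does not show that a gene lacks the element.

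Between D40 femur and D19 femur 2 of the 34 genes were called (5.88%), where 4.85% of all tested genes were (3.34% higher and 1.5% lower at D40). That background of 735 genes rests on single libraries, since leaving out 1 library gave 291 to 1260. SLC1A4 was 0.31 ± 0.07 higher at D40 than at D19 (adjusted p = 0.0167), and GPT2 was lower, at -0.44 ± 0.09 (adjusted p = 0.0101). Each call was lost when certain single libraries were left out, any D19 library or D40 replicate 2 or 3 for SLC1A4 (adjusted p = 0.0616 to 0.0870) and D40 replicate 1 or 2 for GPT2 (adjusted p = 0.0576 and 0.0521). Neither call reached 2-fold, which 1.31% of all tested genes did (1.06% higher and 0.244% lower). ATF5 was -0.42 ± 0.14 (adjusted p = 0.153), SESN2 0.33 ± 0.12 (adjusted p = 0.163) and SLC7A11 0.35 ± 0.15 (adjusted p = 0.262), and none of these was called. With no filter on low counts ATF5 (adjusted p = 0.00142) and SESN2 (adjusted p = 0.00958) were called, as was SLC7A5 at -0.24 (adjusted p = 0.0329), and DESeq2 called ATF5 (adjusted p = 0.0455). SLC7A5 was also called without culture replicate 2, at -0.25 (adjusted p = 0.0445). PHGDH was -0.21 ± 0.06 (adjusted p = 0.0776) and was called without culture replicate 2 (adjusted p = 0.0189) and in DESeq2 (adjusted p = 0.0161). ATF3 was 0.66 ± 0.44 (adjusted p = 0.535), and without D40 replicate 3 it was 1.08 (adjusted p = 0.0205).

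Summed over the 37 genes, the share of scaled counts was 0.567% to 0.583% in D0 culture, 0.538% to 0.559% in D19 femur and 0.478% to 0.516% in D40 femur. Under this scaling the 3 ranges did not overlap and stepped down with day. The scaling factors were 0.9138 to 1.002 in D0 culture and 1.017 to 1.028 in D19 femur, which lowers the D19 shares beside those of culture. Without these factors the culture and D19 ranges overlap, so that step depends on the scaling. The sum over the 37 genes is a description and was not tested.

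The wider pathway was read from 5 further lists with 106 genes, of which 92 were tested. At D19, 13 of the 92 rose and 44 fell, and at D40, 10 rose and 43 fell. The lower calls were thus 47.8% and 46.7% of the tested genes, beside 26.4% and 23.3% of all genes. The higher calls were 14.1% and 10.9%, beside 26.3% and 23.1% of all genes. Between D40 and D19, 1 of the 92 was called higher and 1 lower (1.09% each), beside 3.34% and 1.5% of all tested genes. TYMS, which makes thymidylate, was the lower one, at -0.22 ± 0.06 (adjusted p = 0.0413). Against culture it was higher at D19, at 0.19 ± 0.06 (adjusted p = 0.0114), and not called at D40, at -0.03 ± 0.06 (adjusted p = 0.712). Its lower call was lost under scaling by total library size.

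The cytosolic tRNA synthetases, which charge tRNAs with amino acids and include known ATF4 targets, fell most widely. Of 20, 15 fell and 1 rose at D19 and 14 fell and 1 rose at D40, with medians of -0.26 and -0.27. GARS1, for glycine, averaged 348.4 ± 5.23 CPM in D19 femur and 358.3 ± 8.93 in D40 femur, against 499.1 ± 30.9 in culture, and fell by 0.52 ± 0.06 and 0.48 ± 0.06 (adjusted p = 2.29e-05 and 7.03e-05). EPRS1, for glutamate and proline, fell by 0.48 ± 0.08 at D19. The exception was TARS1, for threonine, which rose by 0.48 ± 0.06 at D19 (adjusted p = 1.98e-05) and 0.27 ± 0.06 at D40 (adjusted p = 0.00245).

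Of 18 tested genes of eIF2 signalling and translation control, 2 rose and 8 fell at D19, and 2 rose and 6 fell at D40. EIF2AK2 (PKR), the eIF2 kinase that senses double-stranded RNA and is also induced by interferon, rose by 0.61 ± 0.10 at D19 (adjusted p = 0.000223) and by 0.80 ± 0.10 at D40 (adjusted p = 3.76e-05). CEBPG, a C/EBP partner of ATF4, rose by 0.17 ± 0.06 at D19 (adjusted p = 0.0267), and DDIT4, an inhibitor of mTORC1, rose by 0.45 ± 0.17 at D40 (adjusted p = 0.0455). DDIT4 was 42.3, 27.4 and 29.9 CPM in D40 femur against 21.2, 27.8 and 24.0 in culture, so the groups overlapped and D40 replicate 1 stood highest. The eIF2 subunit EIF2S3 fell by 0.39 ± 0.06 and 0.33 ± 0.06, and EIF4EBP1, a translation repressor that ATF4 is known to raise, fell by 0.51 ± 0.11 at D40 (adjusted p = 0.00169).

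Of 24 tested other genes of folate, nucleotide and methionine metabolism, 4 rose and 8 fell at D19, and 2 rose and 10 fell at D40. SLC19A1, the reduced folate carrier, rose by 0.83 ± 0.11 and 0.51 ± 0.11 (adjusted p = 3.29e-05 and 0.00186), and MAT2A, which makes S-adenosylmethionine, rose by 0.55 ± 0.14 and 0.36 ± 0.14 (adjusted p = 0.00539 and 0.0479). GART, a purine synthesis enzyme that uses formyl-folate, fell by 0.38 ± 0.06 and 0.35 ± 0.06.

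Of 15 tested other amino acid transporters, 3 rose and 5 fell at each day. SLC6A6, the taurine carrier, rose by 0.89 ± 0.07 and 0.63 ± 0.07 (adjusted p = 5.76e-07 and 1.99e-05). SLC43A2, the leucine and phenylalanine carrier LAT4, averaged 66.6 ± 7.37 CPM in D19 femur and 60.8 ± 5.98 in D40 femur, against 235.9 ± 20.6 in culture. It fell by 1.82 ± 0.10 and 1.96 ± 0.10 (adjusted p = 1.25e-08 and 1.75e-08), a larger change than that of any of the 10 transporters above. SLC7A7, a light chain partner of SLC3A2, fell by 0.99 ± 0.13 at D19 (adjusted p = 7.88e-05).

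Of 15 tested other amino acid enzymes, 3 rose and 8 fell at D19, and 2 rose and 8 fell at D40, with medians of -0.37 and -0.40. ODC1, which makes putrescine from ornithine, fell by 0.71 ± 0.08 at both days (adjusted p = 8.39e-06 and 1.35e-05), and OAT, which links ornithine to glutamate, fell by 0.87 ± 0.12 at D19 (adjusted p = 4.67e-05). PYCR1, which makes proline, fell by 0.72 ± 0.08 at D40 (adjusted p = 9.87e-06), and GOT2, the mitochondrial partner of GOT1, fell by 0.55 ± 0.07 (adjusted p = 3.45e-05).

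**Figure D5:**
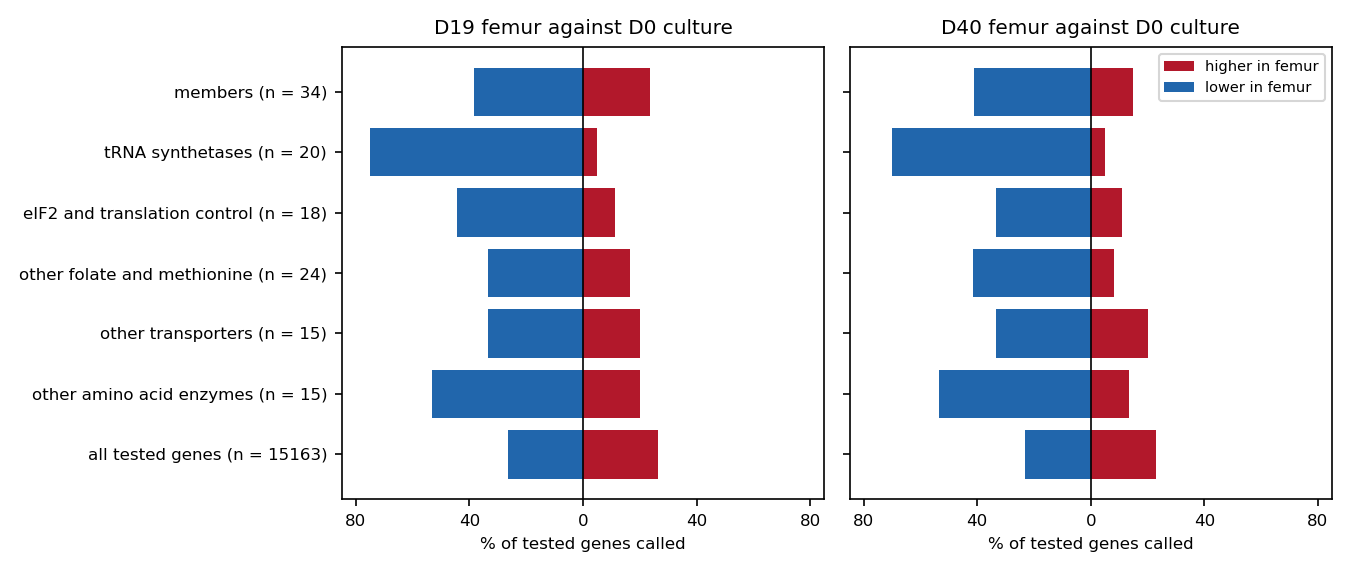
Share of tested genes called lower (left of 0, blue) or higher (right of 0, red) in femur at D19 and D40, for the 34 tested genes of the ATF4, amino acid and one-carbon list, the 5 further lists and all 15163 tested genes. The tRNA synthetase bar reaches 75% lower at D19 and 70% at D40, beside 26.4% and 23.3% for all genes.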

How the data were processed

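RNA-seq was made from 9 DOHH2 libraries. The authors deposited whole-number read counts per gene, not normalized. Per the submitters' processing notes, FastQC 0.11.5, STAR 2.5.2a, featureCounts 1.4.6 and DESeq2 1.40.1 were used with hg38. Not given in the sources used here are the annotation, the strand setting and how multi-mapping or mouse reads were treated, so reads of genes with near-identical copies, such as PSAT1, PSPH, SHMT1 and ATF4 with their pseudogenes, are uncertain.

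Names and exon lengths came from GENCODE 29 (57980 of 58243 identifiers named), and lengths are the union of exons. The test was edgeR 4.0.16 (in R 4.3.3), after filterByExpr and TMM scaling, in a model with 1 coefficient per group over all 9 libraries. The tests are two-sided. Alternatives used limma 3.58.1 and DESeq2 1.42.0. The procedure was tested on simulated data. The rule gave every library's value for ATF4, ASNS, DDIT3, TRIB3, CHAC1 and genes called with a change of at least 2-fold, and allowed up to 3 called genes per direction, day and further list. The genes and lists were chosen with earlier results of these data known. Some genes of the further lists are counted but not reported here by name.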

Additional observations from a re-analysis of the deposited data

Results flagged for a closer look

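The femur effect of 2 genes differed between D40 and D19 by the test of that difference. For SLC1A4 the log2 difference, D40 over D19, was 0.31 ± 0.07 (adjusted p = 0.0167, edgeR), higher in 3 of 3 D40 libraries than in any D19 library. For GPT2 it was -0.44 ± 0.09 (adjusted p = 0.0101, edgeR), lower in 3 of 3 D40 libraries than in any D19 library. Neither call was kept under every alternative.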

How the results depend on the processing

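Of 1731 gene values of the 34 tested genes under the alternatives, 1661 kept their side of the threshold, 40 lost a call, 30 gained one and 0 called values reversed, while 44 values that were called neither way changed sign. Of 21 calls at D19, 18 held under every alternative that tested the gene (not ASNS, MTHFD1L or SLC38A1). Of 19 at D40, 16 held (not ATF4, VLDLR or SLC38A1), and of 2 between D40 and D19, 0 held. VLDLR, among the 18, was not tested under the filter of at least 1 CPM in 3 libraries. It reached that level only in D19 replicates 1 and 2 (1.10 and 1.12 CPM).

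Counting only changes of at least 2-fold left 3 higher and 1 lower at D19, 3 and 1 at D40, and 0 and 0 between the days, and for the further lists 2 and 3, 1 and 3, and 0 and 0. Between D40 and D19 the genes called higher were 2 without a filter on low counts, and those called lower were 3 in DESeq2, 3 without a filter and 2 in a fit of only the 2 groups. Leaving out 1 library gave 0 to 1 higher and 0 to 3 lower there. At D19 it gave 7 to 8 higher and 12 to 14 lower, and at D40 4 to 6 and 12 to 15.

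For the further lists, a fit of only the 2 groups gave 6 higher at D40. Between D40 and D19 the counts higher were 2 with total library size, DESeq2, no filter and only the 2 groups, and the counts lower were 0, 3, 2 and 3 under the same settings and 2 with a minimum of 1 CPM. Leaving out 1 library gave 0 to 2 higher and 0 to 3 lower there, 9 to 14 and 39 to 44 at D19, and 7 to 9 and 37 to 44 at D40. Of promoters, 6 genes held the narrower spelling. The cause of these changes was not tested.

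With the replicate number as a block, the further lists had 2 higher and 3 lower between D40 and D19, and the 34 genes had 8 higher and 13 lower at D19, 5 and 15 at D40 and 1 and 1 between the days. PCK2 was called lower at D40 under the block, at -0.18 (adjusted p = 0.0450, edgeR). The numbers were given in accession order. By the dates in the titles, same-numbered libraries come from 1 sampling period, months from the others. The labels do not say that a period shared a graft or a batch, and by the dates D40 and D19 replicates 1 and 2 did not share a grafting day. For a check of pairing, each gene's group mean was subtracted from its log2 CPM. By these deviations, all 9 libraries correlated best, among libraries of the other groups, with one of their own number. Same-number correlations of the deviations were 0.101 to 0.305 between D40 and D19, 0.0809 to 0.202 between D40 and culture, and -0.05 to 0.118 between D19 and culture. The block called 8305, 7347 and 1010 genes in all at D19, D40 and between the days, against 7995, 7038 and 735. Between the days, 735 became 1257 without a filter and 1171 with only the 2 groups. It was 1260 without culture replicate 2, 309 and 291 without D19 replicates 2 and 3, and 395 and 433 without D40 replicates 1 and 2.

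With 3 libraries a group, a change that misses the threshold is not shown to be absent, and VLDLR and ATF3 rest on few counts.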
